A study of Mus musculus with 9 samples.

Results

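The array used for mouse abdominal aorta carried 3457 probes to exons of mouse long intergenic noncoding RNAs (lincRNAs), and 1047 of them were detected on some arrays but not on all. They were chosen by their detection marks, as the probes whose name begins with MM9LINCRNAEXON and whose spot the scanner software marked well above background on 3 to 8 of the 9 arrays. A probe with that mark is called on, and one without it off. Of the other exon probes, 828 were on all 9 arrays and 1582 on 0 to 2, and 570 of the latter were on none. The samples were abdominal aortas of male mice, on 9 arrays in 3 groups of 3. Control mice were the arrays titled wild type. CaPO4 mice had an aneurysm induced with calcium phosphate. Naringenin mice had such an aneurysm and were given naringenin, a citrus flavonoid. Strain, age, dose and the time of sampling were not given in the sources used here. The series' design text says that 5 aortas per condition were mixed and does not say whether each array held a pool, 1 animal or a repeat of 1 pool, so the p-values below may measure technical spread only.

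LincRNAs are transcripts without a known protein product that are made from their own genes between protein-coding genes. Many are spliced and polyadenylated like messenger RNAs, and most are present at low levels and in fewer tissues than messenger RNAs. Several are known to act in the nucleus, where they bind chromatin regulators, and others in the cytoplasm, and for most no function is known. The aorta wall is built of smooth muscle, endothelium and connective tissue, and an aneurysm is a widening of it in which the medial layer is lost and immune cells enter. A calcium phosphate model produces this by applying the salt to the outside of the vessel. Each exon on the array had a number between 10002 and 12127 and a sign, and 1728 of the 1729 numbers had both a + and a - probe, which read opposite strands. The files give neither the sequence nor the genome position of these probes, the gene an exon belongs to, or whether + is the strand of the lincRNA or of the genome. They are therefore named as in the files, without the ending _P1 that each name carries there.

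The arrays were unequal in how much they detected. The share of the 1047 probes that were on was 68.8%, 56.7% and 63.4% for control 1 to 3, 23.5%, 74.98% and 13.2% for CaPO4 1 to 3, and 74.6%, 48.2% and 97.5% for naringenin 1 to 3. Over all 59709 probes the share ran in nearly the same order, from 37.1% on CaPO4 3 to 84.1% on naringenin 3. Levels are given here on a log2 scale on which 0 is the 75th percentile of an array's intensities. On this scale the lowest level of a detected probe was -1.22 on CaPO4 3 and -1.47 on CaPO4 1, between -2.74 and -2.09 on the controls, CaPO4 2, naringenin 1 and naringenin 2, and -4.35 on naringenin 3. The median level of the 1047 probes moved much less, from -2.29 on CaPO4 3 to -1.71 on naringenin 3. Of 1200 negative control spots per array, 41.4% were marked well above background on naringenin 3 and 1.08% to 14.6% on the other 8 arrays.

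**Figure D1:**
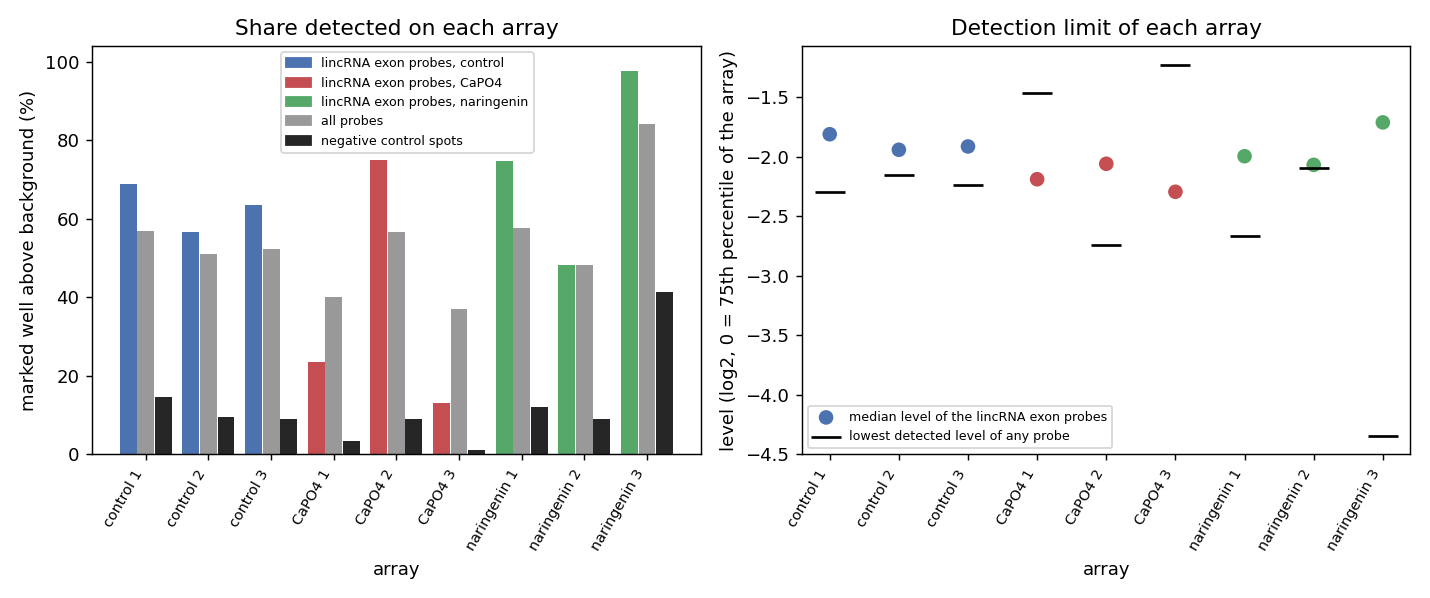
Left, the share (%) of the 1047 lincRNA exon probes, of all probes and of the negative control spots marked well above background on each array. Right, the median level of the 1047 probes (dots, coloured by group) and the lowest level of any detected probe (bars) on each array, in log2 relative to the 75th percentile. The lowest detected level lay above the median of the probes on CaPO4 1 and CaPO4 3 and far below it on naringenin 3, and these arrays had the lowest and the highest shares.

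The array CaPO4 2 stood apart from the rest of its group. Over the 1045 probes with a value on every array, levels on CaPO4 2 correlated with CaPO4 1 and CaPO4 3 at r = 0.27 and 0.29, and with naringenin 1 and naringenin 2 at r = 0.69 and 0.72. CaPO4 1 and CaPO4 3 correlated with each other at r = 0.77, and the controls among themselves at 0.85 to 0.87. These are correlations across probes of 1 pair of arrays, and probes are not replicates. CaPO4 2 differed by more than 2-fold from the mean of CaPO4 1 and CaPO4 3 for 42.0% of the 1047 probes, against 19.5% when it was set against the mean of naringenin 1 and naringenin 2. Unequal detection chose these probes, and only 23.5% and 13.2% of them were on for CaPO4 1 and CaPO4 3. Many of the levels compared are thus at or near background, and neither the shares nor the correlations were computed over all probes. Arrays with the same scan time in the file headers are called 1 scan here. Naringenin 3 had a scan of its own, the controls shared another, and CaPO4 1 to 3 shared the remaining one with naringenin 1 and naringenin 2. Which arrays shared a slide was not read from the files. No scan held controls and another group. For CaPO4 against control, and for naringenin against control in that no scan held both, scan and group therefore cannot be told apart.

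None of the cell type lists that mark smooth muscle, endothelium, macrophages, lymphocytes, fat or red cells had a gene named on this array, so the labelled tissue was not checked. The pancreatic acinar list had 1 of 7 genes named, Amy2a5, which encodes pancreatic amylase. The control arrays had levels of 0.10, 0.54 and 0.70, the CaPO4 arrays 2.03, 11.05 and 2.04, and the naringenin arrays 9.93 to 11.12. CaPO4 2 thus lay with the naringenin arrays. The lymphatic and lymph node list had 2 of 5 named, Ccl21b and Ccl21c, chemokine genes with near-identical copies. Their levels were 4.93 to 5.58 in the controls, 7.58 to 7.79 on CaPO4 1 and CaPO4 3, and 8.51 to 9.71 on CaPO4 2 and the naringenin arrays. The part of other tissues in the results below was not tested, and in mixed tissue fewer cells of a type and less RNA per cell cannot be told apart.

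The most frequent on and off patterns set single arrays apart within a group. The commonest pattern, 119 probes, was on everywhere except CaPO4 1 and CaPO4 3. The next, 105 probes, was on CaPO4 2 and naringenin 1 to 3 only. A further 75 were on CaPO4 2, naringenin 1 and naringenin 3, 75 on the 3 controls and naringenin 3, and 67 on all arrays but CaPO4 3. Each of these shares lay near the share of the same pattern among all 18215 probes of the array that were on 3 to 8 arrays, for example 11.4% against 11.6% for the first and 10.03% against 10.6% for the second. A probe on exactly 1 CaPO4 array was on CaPO4 2 in 554 of 577 cases, and a probe on exactly 1 naringenin array was on naringenin 3 in 213 of 214. Where 2 naringenin arrays were on, naringenin 2 was the one that was off in 303 of 331 cases. Among the controls the split was more even: of 151 probes on 1 control array, 83 were on control 1, 20 on control 2 and 48 on control 3.

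**Figure D2:**
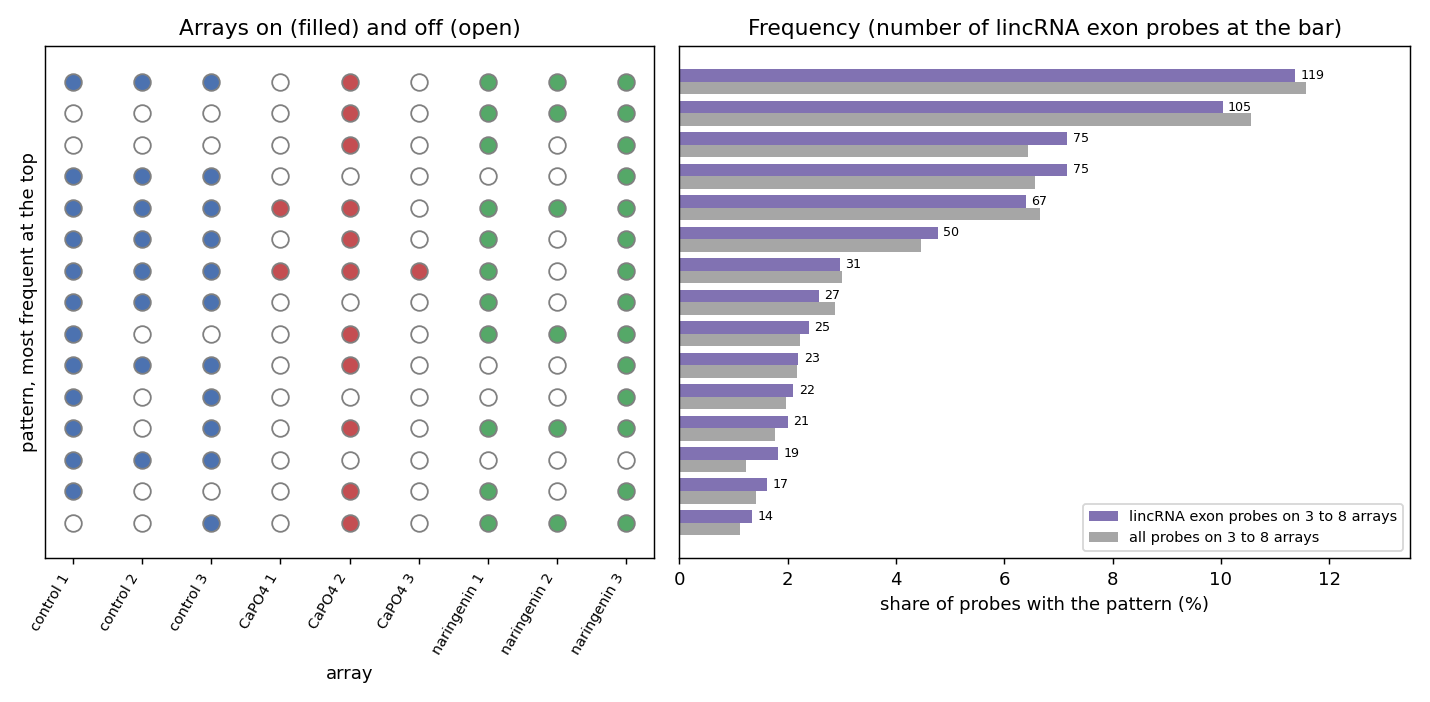
The 15 most frequent on and off patterns of the 1047 lincRNA exon probes over the 9 arrays (left, filled circles are on) and the share (%) of the 1047 probes and of all probes on 3 to 8 arrays that had each pattern (right). The most frequent pattern held 119 probes and lacked only CaPO4 1 and CaPO4 3, and the shares of lincRNA exon probes ran close to those of all such probes.

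Counted by group, 501 probes were on all 3 control arrays and 233 on none. For CaPO4 these counts were 90 and 219, and for naringenin 477 and 25. A clean group pattern, on all or none of the arrays in every group, was found for 49 probes (4.68%, against 4.56% of all probes on 3 to 8 arrays). On no control array but on all naringenin arrays were 145 probes (13.8%, against 14.5%). On all control arrays but no CaPO4 array were 130 (12.4%, against 11.7%), and leaving out CaPO4 2 raised this count to 326. Of those 130, 118 had a mean control level above the mean detection limit of the CaPO4 arrays, which the low limit of CaPO4 2 brings down, and 12 lay below it. The mean control level was above the limits of both CaPO4 1 and CaPO4 3 in 53 of the 130. The reverse pattern, on no control array and on all CaPO4 arrays, held 15 probes (1.43%, against 1.54%), of which 2 were - probes. On all control arrays and no naringenin array were 24 (2.29%, against 1.56%).

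These counts changed when the same limit was set for all arrays. With the limit of CaPO4 3, the highest of the 9, on every array, 333 of the 1047 probes were on no array, 305 on 1 or 2 and 409 on 3 to 8. The number above that limit was then 318, 277 and 280 on the controls, 176, 208 and 138 for CaPO4, and 229, 224 and 349 for naringenin. Naringenin 3 and CaPO4 3 kept the extreme places, over a narrower range. The pattern on no control but all naringenin arrays then held 92 probes, of which 35 also had it by the software's mark. The pattern on all control but no CaPO4 arrays held 98, of which 36 had it by the mark.

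Levels on every array are given below for examples of each clean pattern. Since the pattern chose them, their levels describe it and test nothing. A level on an array where the probe was off is a value at or near background: the software had replaced the intensity of 1 to 250 of the 1047 probes per array because it did not exceed background, and such levels have no order. Fitted changes and their SE use these levels as they stand. Replaced levels are not marked below. Some levels recur over several named probes, for example -3.79 on CaPO4 1 and -3.55 on CaPO4 3.

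MM9LINCRNAEXON10276- and MM9LINCRNAEXON11851- were on the 3 controls only. The levels of MM9LINCRNAEXON10276- were -0.30, 0.11 and -0.23 in the controls, -2.32, -3.59 and -2.33 with CaPO4, and -4.17, -3.94 and -4.29 with naringenin. Its control arrays lay above all others, and it fell in both aneurysm groups. Control was at least 3.18-fold higher than CaPO4 (log2 change -2.61 ± 0.39, SE, n = 3 per group, adjusted p = 0.00373) and at least 7.33-fold higher than naringenin (-4.00 ± 0.39, adjusted p = 0.000385). MM9LINCRNAEXON11851- had -0.22, -0.60 and -0.46 in the controls, -1.99, -4.43 and -2.51 with CaPO4, and -4.73, -4.38 and -4.76 with naringenin. Control exceeded CaPO4 at least 2.60-fold (-2.55 ± 0.55, adjusted p = 0.0126) and naringenin at least 6.08-fold (-4.20 ± 0.55, adjusted p = 0.000784). The first of these calls was lost without control 1 (adjusted p = 0.0531), and without CaPO4 2 its log2 change was -1.82. Both bounds against naringenin are raised by the low limit of naringenin 3 (-4.35, against -2.66 and -2.09 on naringenin 1 and naringenin 2). They were not computed without that array.

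Naringenin arrays alone detected MM9LINCRNAEXON10248- and MM9LINCRNAEXON10385-. The former had -1.91, -1.67 and -0.05 on naringenin 1 to 3, and between -4.62 and -2.55 on the 6 other arrays. The latter had -2.07, -1.92 and -0.30 there and between -4.62 and -2.83 elsewhere. In both, naringenin 3 was the highest array. Against control they were at least 2.03-fold (2.44 ± 0.63, adjusted p = 0.0108) and at least 1.74-fold higher (2.92 ± 0.50, adjusted p = 0.0019), and against CaPO4 the adjusted p was 0.094 and 0.0745. MM9LINCRNAEXON10331- was the reverse, on the 6 control and CaPO4 arrays and off with naringenin. Its levels were -0.46, -0.41 and -0.46, then -0.60, -2.65 and -0.91, then -2.81, -2.61 and -4.46. CaPO4 2 overlapped the naringenin arrays here. Against control it fell with naringenin at least 6.03-fold (-2.85 ± 0.61, adjusted p = 0.00477), a bound that the low limit of naringenin 3 raises. Naringenin minus CaPO4 (-1.91 ± 0.61) had an adjusted p of 0.109. No probe was on the 3 CaPO4 arrays and nowhere else.

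Off only in CaPO4 were MM9LINCRNAEXON10114- and MM9LINCRNAEXON11611+. MM9LINCRNAEXON10114- had -1.56, -1.77 and -1.39 in the controls, -2.63, -3.08 and -3.55 with CaPO4, and -1.18, -1.69 and -0.55 with naringenin. All 3 CaPO4 arrays were off, so their place below the other 6 rests on background levels. CaPO4 was lower than control at least 1.18-fold (-1.51 ± 0.38, adjusted p = 0.0227), and naringenin higher than CaPO4 at least 1.59-fold (1.95 ± 0.38, adjusted p = 0.036). These bounds are for group means. The control mean of -1.57 lay below the limits of CaPO4 1 and CaPO4 3 (-1.47 and -1.22). The 1.18-fold bound therefore rests on the low limit of CaPO4 2 (-2.74). The first call was lost without any 1 control or without CaPO4 3 (adjusted p up to 0.0806), and the second without any 1 array other than CaPO4 2 (adjusted p up to 0.155). With normexp background correction the first change was 0.01, so its direction was not kept. MM9LINCRNAEXON11611+ had -1.73, -1.69 and -1.23, then -2.21, -4.84 and -2.76, then -1.68, -1.53 and -0.41. Its changes did not pass the threshold (adjusted p = 0.0771 for CaPO4 minus control and 0.103 for naringenin minus CaPO4).

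On in both aneurysm groups and in no control were MM9LINCRNAEXON10161+ and MM9LINCRNAEXON10898+. MM9LINCRNAEXON10161+ had -2.76, -2.22 and -3.93 in the controls, 0.40, 0.64 and 0.37 with CaPO4, and 0.76, 0.81 and 0.27 with naringenin. The 6 aneurysm arrays lay within 0.27 to 0.81, CaPO4 2 included, and every control was far below them. It was at least 6.47-fold higher in CaPO4 than in control (3.44 ± 0.43, adjusted p = 0.00245) and at least 7.16-fold higher with naringenin (3.58 ± 0.43, adjusted p = 0.00064). Both calls held when any 1 array was left out. The difference between the aneurysm groups was 0.15 ± 0.43 (adjusted p = 0.845). MM9LINCRNAEXON10898+ had -2.95, -3.55 and -2.61, then -0.51, 0.72 and -0.66, then 0.48, 0.36 and -0.55, and was at least 4.23-fold higher in CaPO4 (2.89 ± 0.47, adjusted p = 0.0048) and at least 4.99-fold with naringenin (3.13 ± 0.47, adjusted p = 0.0012).

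Other probes were on for 1 array of a group and on all arrays of another. MM9LINCRNAEXON11197+ and MM9LINCRNAEXON10236+ were on control 1 but not control 2 or control 3. The levels of MM9LINCRNAEXON11197+ were -1.73, -2.32 and -3.44 in the controls, 0.87, -0.70 and 0.74 with CaPO4, and 0.30, 0.38 and 1.12 with naringenin. Those of MM9LINCRNAEXON10236+ were -1.62, -2.38 and -2.30, then 0.21, -1.40 and 0.23, then 0.47, 0.53 and 0.70. Both rose in CaPO4 (2.80 ± 0.55, adjusted p = 0.00888, and 1.78 ± 0.46, adjusted p = 0.0241) and with naringenin (3.10 ± 0.55, adjusted p = 0.00215, and 2.67 ± 0.46, adjusted p = 0.00198) against control, and in both CaPO4 2 was the lowest CaPO4 array. The CaPO4 call of MM9LINCRNAEXON10236+ was lost without control 2, control 3, CaPO4 1 or CaPO4 3 (adjusted p up to 0.0918).

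In MM9LINCRNAEXON11268+ and MM9LINCRNAEXON10140-, CaPO4 2 was the only CaPO4 array on. MM9LINCRNAEXON11268+ had -0.41, -0.52 and -0.28 in the controls, -1.53, 0.39 and -1.38 with CaPO4, and 3.00, 2.75 and 1.96 with naringenin. Its naringenin arrays stood above all others. MM9LINCRNAEXON10140- had -0.58, -0.39 and -0.20, then -1.59, 0.14 and -1.89, then 1.34, 1.21 and 0.73. It rose with naringenin against control (1.48 ± 0.50, adjusted p = 0.0341), a call that was lost without any 1 control, naringenin 1 or naringenin 2 (adjusted p up to 0.0993).

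In MM9LINCRNAEXON11249+ and MM9LINCRNAEXON10538+, naringenin 3 was the only naringenin array on, and CaPO4 2 was off. MM9LINCRNAEXON11249+ had 3.69, 3.84 and 3.79 in the controls, 4.70, -2.79 and 4.50 with CaPO4, and -3.77, -2.98 and -1.39 with naringenin. CaPO4 1 and CaPO4 3 were the highest arrays and CaPO4 2 lay among the naringenin arrays, so that CaPO4 minus control was -1.64 ± 1.64 (adjusted p = 0.492). Without CaPO4 2 it was 0.83, and without naringenin 3 as well its adjusted p was 0.0319. MM9LINCRNAEXON10538+ had 2.56, 2.56 and 2.35 in the controls, -0.29, -2.83 and -0.25 with CaPO4, and -2.88, -2.66 and -1.03 with naringenin.

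All 1047 probes entered 3 comparisons, fitted with limma over all 37498 probes detected on at least 3 arrays, with p-values adjusted over all probes tested and called at an adjusted p under 0.05. The same arrays chose the probes, so the counts describe them and support nothing else. They are set beside all probes tested and beside the other 17168 probes that were on 3 to 8 arrays. The comparisons against control share the control arrays, and both that involve CaPO4 share the CaPO4 arrays.

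In CaPO4 against control more probes were called lower than higher, as among the other probes on 3 to 8 arrays, and normexp background correction turned that balance. Of 1047, 275 were called (26.3%): 95 rose and 180 fell. Over all probes tested 21.4% were called, 10.1% higher and 11.3% lower, and of the other probes on 3 to 8 arrays 24.7% were, 1563 higher and 2677 lower (36.9% higher). The median change was -0.35 on the log2 scale, against -0.04 for all probes tested and -0.31 for the other probes on 3 to 8 arrays. The balance of directions turned on the processing: rises made up 34.5% of the calls here, 49.2% with arrays centred on their median, 38.6% with quantile normalization, 19.1% with the 75th percentile taken over probes on all 9 arrays, 1.61% without scaling and 81.2% with normexp background correction, where the median change was 0.23. Groups did not overlap for 509 probes (48.6%, against 48.7% of all tested), 165 higher (23.1% of all tested) and 344 lower (25.6%), and 456 had an unadjusted p under 0.05 (37.6% of all tested). Of the other 17168 probes on 3 to 8 arrays 46% did not overlap, 2698 higher and 5200 lower. Overlap was read from the levels of all arrays, including those where a probe was off. Such levels carry no order, so the non-overlap counts here and below rest in part on background values. The size of that part was not tested. Leaving out control 1, control 2 or control 3 reduced the calls to 119, 120 and 137, and without CaPO4 2 there were 347.

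For 413 probes no array of the lower group was on, so the fold could at most be bounded. The bound compares the mean of the higher group with a mean over the arrays of the lower group. On each of those arrays the detection limit is used, or the probe's own level if that was higher. The bound is for group means, not single arrays, and is given only where the higher group was on for all 3 arrays. With naringenin as the lower group, the low limit of naringenin 3 (-4.35) brings the mean limit down. With CaPO4 as the lower group, the low limit of CaPO4 2 brings the mean limit down to -1.81. Such a bound exceeded 1 for 132 of the 413, with 15 higher and 117 lower in CaPO4. Of these 102 were called (77.3%), against 69.9% of all 2103 tested probes with such a bound, of which 281 were higher and 1822 lower. Its median was 1.53-fold (1.54-fold over all tested), 36 probes exceeded 2-fold, and the range ended at 7.34-fold. All 6 arrays were on for 46 probes, of which 9 were called, all lower. Both groups were on for some arrays in 559 (83 called), neither group in 10, and only the lower group in 19. Calls in these classes were not counted over all probes, so they show nothing particular to lincRNA exons.

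The largest bound was that of MM9LINCRNAEXON10128-, a probe chosen after its values were seen. It had 1.06, 1.02 and 1.12 in the controls, -1.87, -3.34 and -1.84 with CaPO4, all off, and -3.17, -4.23 and -2.40 with naringenin, where only naringenin 3 was on. It fell at least 7.34-fold in CaPO4 (-3.42 ± 0.53, adjusted p = 0.00414). MM9LINCRNAEXON11119-, chosen likewise, had 1.16, 1.07 and 0.78, then -1.91, -4.09 and -1.29, then -4.19, -3.98 and -2.62. It fell at least 7.03-fold (-3.44 ± 0.68, adjusted p = 0.00924), and its change without CaPO4 2 was -2.61. Among rises, MM9LINCRNAEXON11562+ came next after MM9LINCRNAEXON10161+, with -2.33, -3.48 and -2.91 in the controls, 0.37, -1.06 and 0.47 with CaPO4, and -0.89, -0.46 and -0.91 with naringenin. It rose at least 4.45-fold in CaPO4 (2.83 ± 0.47, adjusted p = 0.00518) and at least 2.78-fold with naringenin against control.

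By fitted change, the largest called rises in CaPO4 with no overlap, levels of off arrays included, were those of MM9LINCRNAEXON10174-, MM9LINCRNAEXON10161+ and MM9LINCRNAEXON12060+. MM9LINCRNAEXON10174- had -4.62, -4.11 and -4.56 in the controls, -1.77, 2.26 and -2.003 with CaPO4, and 1.01, 1.02 and -0.30 with naringenin. Only CaPO4 2 of its group was on and it was the highest array of all. CaPO4 1 and CaPO4 3 were off like the controls, so their non-overlap with the controls ranks background levels. Its change of 3.93 ± 0.96 (adjusted p = 0.0199) became 2.54 without CaPO4 2, 4.56 without CaPO4 1 and 4.68 without CaPO4 3, and the call was lost without any 1 control (adjusted p up to 0.0688). MM9LINCRNAEXON12060+ showed the opposite spread, with -4.27, -3.31 and -3.50, then 0.71, -2.43 and 0.52, then -2.99, -2.91 and -3.20. CaPO4 1 and CaPO4 3 were high and CaPO4 2 was nearer the rest. It rose at least 3.54-fold (3.29 ± 0.72, adjusted p = 0.0134), 4.31 without CaPO4 2, and the call was lost without control 1 (adjusted p = 0.0581).

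The probes that fell most in CaPO4 were MM9LINCRNAEXON11171+, MM9LINCRNAEXON10064+ and MM9LINCRNAEXON10538+. MM9LINCRNAEXON11171+ had 2.29, 1.88 and 2.07 in the controls, -0.35, -4.95 and -1.08 with CaPO4, and -3.22, -4.32 and -0.59 with naringenin. MM9LINCRNAEXON10064+ had 3.74, 3.74 and 3.92, then 1.09, -1.50 and 0.42, then -2.31, -3.41 and -0.02. In all 3 probes the controls lay close together and above every other array, and CaPO4 2 was the lowest CaPO4 array. MM9LINCRNAEXON11171+ fell by 4.21 ± 1.17 (adjusted p = 0.0314), MM9LINCRNAEXON10064+ by 3.80 ± 0.84 (adjusted p = 0.014) and MM9LINCRNAEXON10538+ by 3.61 ± 0.71 (adjusted p = 0.00891). Without CaPO4 2 the changes were -2.80, -3.05 and -2.76, and that of MM9LINCRNAEXON11171+ was -5.10 without CaPO4 1. The call of MM9LINCRNAEXON11171+ was lost without any 1 control (adjusted p up to 0.0937) and that of MM9LINCRNAEXON10064+ without control 1 (adjusted p = 0.0501).

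**Figure D3:**
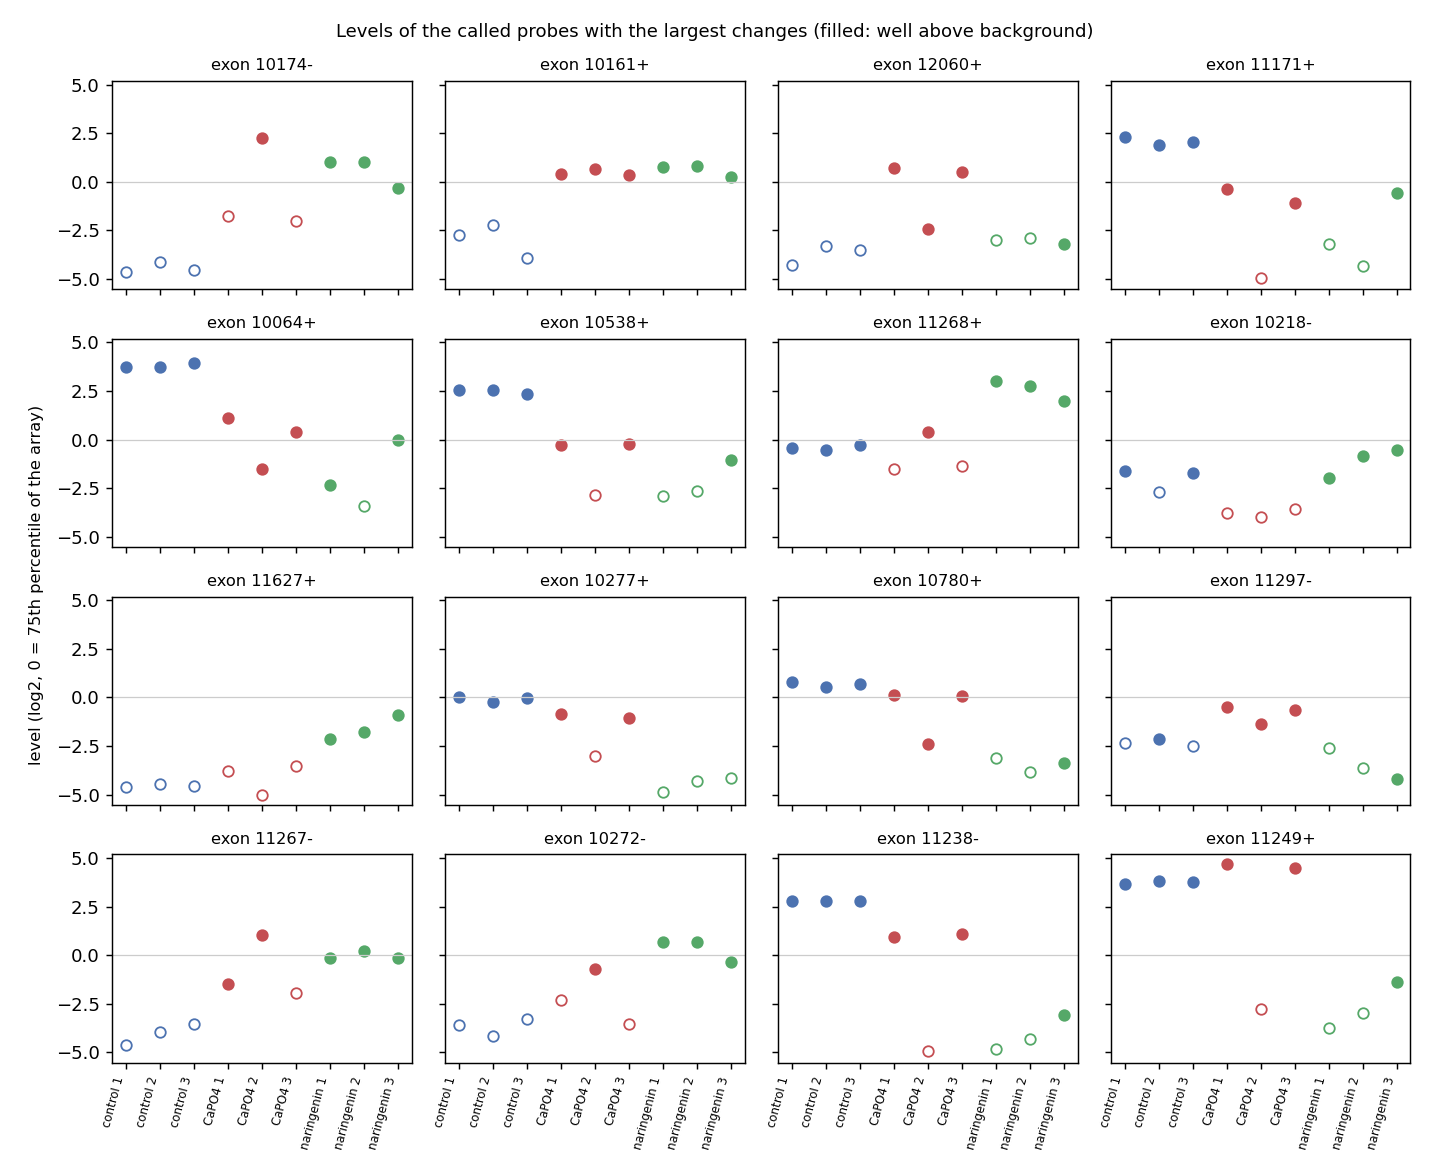
Level of the 16 called probes with the largest non-overlapping changes on each of the 9 arrays, in log2 relative to the 75th percentile of the array. Blue is control, red CaPO4 and green naringenin, filled circles are arrays where the probe was on, and each panel title gives the number and strand sign in the probe's name. In MM9LINCRNAEXON11249+, MM9LINCRNAEXON11238- and MM9LINCRNAEXON12060+ the array CaPO4 2 lay apart from CaPO4 1 and CaPO4 3.

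Between naringenin and CaPO4, 22 of the 1047 probes were called (2.10%, against 2.18% of all probes tested, 0.816% higher and 1.36% lower): 10 rose and 12 fell. A total of 283 had an unadjusted p under 0.05 (26.9% of all tested). The median change was 0.31, against 0.12 for all probes tested and 0.33 for the other probes on 3 to 8 arrays, and it was -0.26 with normexp background correction. Rises made up 45.5% of the calls, 29.0% with arrays centred on their median, 83.3% with the 75th percentile over probes on all 9 arrays, and all calls without scaling (9) and with normexp (1). Groups did not overlap for 306 probes (29.2%, against 24.3%), 221 higher (12.6% of all tested) and 85 lower (11.7%), with levels of arrays where a probe was off included. Of the other 17168 probes on 3 to 8 arrays 25.7% did not overlap, 2971 higher and 1443 lower, and 2.6% were called. The number of calls depended on every array. With limma it was 408 without CaPO4 2 (275 higher, 133 lower), 0 without CaPO4 1, CaPO4 3 or naringenin 2 (unadjusted p under 0.05 for 193, 182 and 250), 2 without naringenin 1, 3 without naringenin 3, which is also the fit with scan as a block, and 2, 3 and 4 without control 1, control 2 and control 3. Within the scan that held both groups it was 0 (136 at an unadjusted p under 0.05).

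Bounds were smaller here. The lower group was off in 119 probes, and a bound above 1 with the higher group on for all arrays was found for 17 (16 higher and 1 lower with naringenin). Of these 6 were called (35.3%), against 34.1% of all 270 tested probes with such a bound, of which 266 were higher and 4 lower. The median was 1.30-fold, and 1 exceeded 2-fold, the 3.14-fold of MM9LINCRNAEXON10331-, which was not called. In 87 probes only the group with the lower mean was on, all of them lower with naringenin. Naringenin 3, with its low limit, was on in 1021 of the 1047 probes.

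The probes that rose most from CaPO4 to naringenin were MM9LINCRNAEXON11268+, MM9LINCRNAEXON10218- and MM9LINCRNAEXON11627+. MM9LINCRNAEXON11268+, whose levels are given above, rose by 3.42 ± 0.51 (adjusted p = 0.0158), or 4.03 without CaPO4 2, and the call was lost without CaPO4 1, CaPO4 3, naringenin 1 or naringenin 2 (adjusted p up to 0.0743). MM9LINCRNAEXON10218- had -1.61, -2.70 and -1.74 in the controls, -3.79, -3.98 and -3.55 with CaPO4, and -1.99, -0.82 and -0.51 with naringenin. Its CaPO4 arrays were all off, at levels that carry no order. It rose at least 1.62-fold (2.67 ± 0.45, adjusted p = 0.0227), a call lost without control 1, CaPO4 1, CaPO4 3, naringenin 2 or naringenin 3 (adjusted p up to 0.0973). MM9LINCRNAEXON11627+ was on the naringenin arrays only, at -2.12, -1.80 and -0.93, with -4.62, -4.47 and -4.56 in the controls and -3.79, -5.04 and -3.55 with CaPO4. It rose at least 1.14-fold over CaPO4 (2.51 ± 0.46, adjusted p = 0.0279), a call that was lost without any 1 array other than CaPO4 2 (adjusted p up to 0.0917). Its naringenin mean of -1.62 lay below the limits of CaPO4 1 and CaPO4 3 (-1.47 and -1.22). The bound therefore rests on the low limit of CaPO4 2.

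By bound, MM9LINCRNAEXON11769+ and MM9LINCRNAEXON11621-, chosen after their values were seen, led the called rises. MM9LINCRNAEXON11769+ had -2.61, -2.64 and -1.98 in the controls, -3.79, -2.83 and -3.55 with CaPO4, and -0.87, -1.33 and -0.70 with naringenin, and MM9LINCRNAEXON11621- had -2.46, -1.55 and -2.31, then -3.79, -2.70 and -3.50, then -1.50, -0.75 and -0.65. In both, the naringenin arrays lay above all others and the CaPO4 arrays were off. They were at least 1.79-fold (2.42 ± 0.37, adjusted p = 0.0165) and at least 1.78-fold higher (2.37 ± 0.42, adjusted p = 0.0251). The first call was lost without CaPO4 1, CaPO4 3 or any 1 naringenin array (adjusted p up to 0.08), and the second without any 1 array other than CaPO4 2 (adjusted p up to 0.115).

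Among falls from CaPO4 to naringenin were MM9LINCRNAEXON10277+, MM9LINCRNAEXON10780+ and MM9LINCRNAEXON11297-. MM9LINCRNAEXON10277+ had 0.01, -0.23 and -0.04 in the controls, -0.86, -3.02 and -1.04 with CaPO4, and -4.87, -4.32 and -4.17 with naringenin, all off. MM9LINCRNAEXON10780+ had 0.81, 0.54 and 0.71, then 0.10, -2.38 and 0.08, then -3.14, -3.85 and -3.38. In both, CaPO4 2 lay between the other CaPO4 arrays and the naringenin arrays. For MM9LINCRNAEXON10277+ CaPO4 2 was off too, so its place above the naringenin arrays carries no order. MM9LINCRNAEXON10277+ fell by 2.82 ± 0.53 (adjusted p = 0.032) and MM9LINCRNAEXON10780+ by 2.72 ± 0.60 (adjusted p = 0.0498), and without CaPO4 2 the changes were -3.51 and -3.55. Either call was lost without any 1 array other than CaPO4 2 (adjusted p up to 0.139 and 0.193).

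MM9LINCRNAEXON11297- differed in that its CaPO4 arrays were the high ones. It had -2.33, -2.15 and -2.50 in the controls, -0.49, -1.36 and -0.63 with CaPO4, and -2.62, -3.61 and -4.18 with naringenin. It rose in CaPO4 against control (1.5 ± 0.43, adjusted p = 0.0352) and fell from CaPO4 to naringenin (-2.65 ± 0.43, adjusted p = 0.0202), and naringenin minus control was -1.15 ± 0.43 (adjusted p = 0.0521). The rise was lost without any 1 control, CaPO4 1, CaPO4 3 or naringenin 2 (adjusted p up to 0.109), and the fall without control 1, control 2, CaPO4 1, CaPO4 3, naringenin 2 or naringenin 3 (adjusted p up to 0.0964).

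The comparison of naringenin with control gave the most calls, 500 of 1047 (47.8%, against 45.9% of all probes tested, 22.7% higher and 23.2% lower, and 48.1% of the other probes on 3 to 8 arrays). Of these, 242 rose and 258 fell, and the median change was 0.01 (0.03 for all probes tested). Rises made up 48.4% of the calls, and 38.7% with the 75th percentile over probes on all 9 arrays. Groups did not overlap for 681 probes (65.0%, against 67.9%), 346 higher (34% of all tested) and 335 lower (33.9%), and 585 had an unadjusted p under 0.05 (54.5% of all tested). Of the other probes on 3 to 8 arrays 65.1% did not overlap, 5566 higher and 5612 lower. The non-overlap count again includes levels of arrays where a probe was off. Leaving out 1 array gave between 375 and 614 calls. With scan as a random block there were 377, which does not separate scan from group, since no scan held both.

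Bounded changes were mostly upward, as over all probes tested. In 257 probes the lower group was off, and a bound above 1 with the higher group on for all arrays was found for 166, of which 142 were higher with naringenin and 24 lower. Calls were made for 153 of the 166 (92.2%), against 90.5% of all 2866 tested probes with such a bound, of which 2582 were higher and 284 lower. The median bound was 2.09-fold (2.11-fold over all tested), and 88 exceeded 2-fold. No naringenin array was on for 25 of the 1047 probes and no control array for 233, and naringenin 3 had the lowest detection limit of the 9. The part of that limit in the direction of the bounds was not tested. Of 203 probes on all 6 arrays, 37 were called, 14 higher and 23 lower. In 586 both groups were on for some arrays, with 57 called higher and 210 lower, and in 1 only the group with the lower mean was on. Here too, calls by class were not counted over all probes. Their directions therefore show nothing particular to lincRNA exons.

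The largest bound, at least 10.7-fold between group means, was that of MM9LINCRNAEXON11580-, chosen after its values were seen. It had -2.59, -2.53 and -2.58 in the controls, -1.08, -0.15 and -1.86 with CaPO4, and 0.24, 0.39 and 2.93 with naringenin. Naringenin 3 stood well above the other 8 arrays, and the change of 3.75 ± 0.69 (adjusted p = 0.00251) was 2.88 without it. The bound uses the naringenin mean of 1.19, which naringenin 3 raises, and was not computed without that array. It is no minimum for naringenin 1 and naringenin 2. By fitted change MM9LINCRNAEXON10174-, MM9LINCRNAEXON11267- and MM9LINCRNAEXON10272- rose most. MM9LINCRNAEXON10174- rose at least 6.98-fold (5.01 ± 0.96, adjusted p = 0.00302). MM9LINCRNAEXON11267- had -4.62, -3.98 and -3.55 in the controls, -1.46, 1.02 and -1.93 with CaPO4, and -0.17, 0.23 and -0.15 with naringenin, and MM9LINCRNAEXON10272- had -3.57, -4.15 and -3.27, then -2.32, -0.71 and -3.55, then 0.70, 0.67 and -0.32. No control was on for these probes, and CaPO4 2 was the highest CaPO4 array in each. They rose at least 4.59-fold (4.02 ± 0.67, adjusted p = 0.00176) and at least 5.96-fold (4.01 ± 0.64, adjusted p = 0.00151).

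Falls against control were larger on the fitted scale and had no bound where naringenin 3 was on. MM9LINCRNAEXON11238- had 2.80, 2.79 and 2.77 in the controls, 0.96, -4.95 and 1.12 with CaPO4, and -4.84, -4.31 and -3.10 with naringenin. The controls lay close together, and CaPO4 2 was again low like the naringenin arrays. It fell by 6.87 ± 1.33 (adjusted p = 0.00315), MM9LINCRNAEXON11249+ by 6.49 ± 1.64 (adjusted p = 0.0102) and MM9LINCRNAEXON10064+ by 5.71 ± 0.84 (adjusted p = 0.00114). Without naringenin 3 the last 2 were -7.15 and -6.66, and MM9LINCRNAEXON10064+ was -4.97 without naringenin 2. MM9LINCRNAEXON10277+, with all naringenin arrays off, fell at least 7.38-fold (-4.36 ± 0.53, adjusted p = 0.000655). The low limit of naringenin 3 raises that bound, which was not computed without this array.

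**Figure D4:**
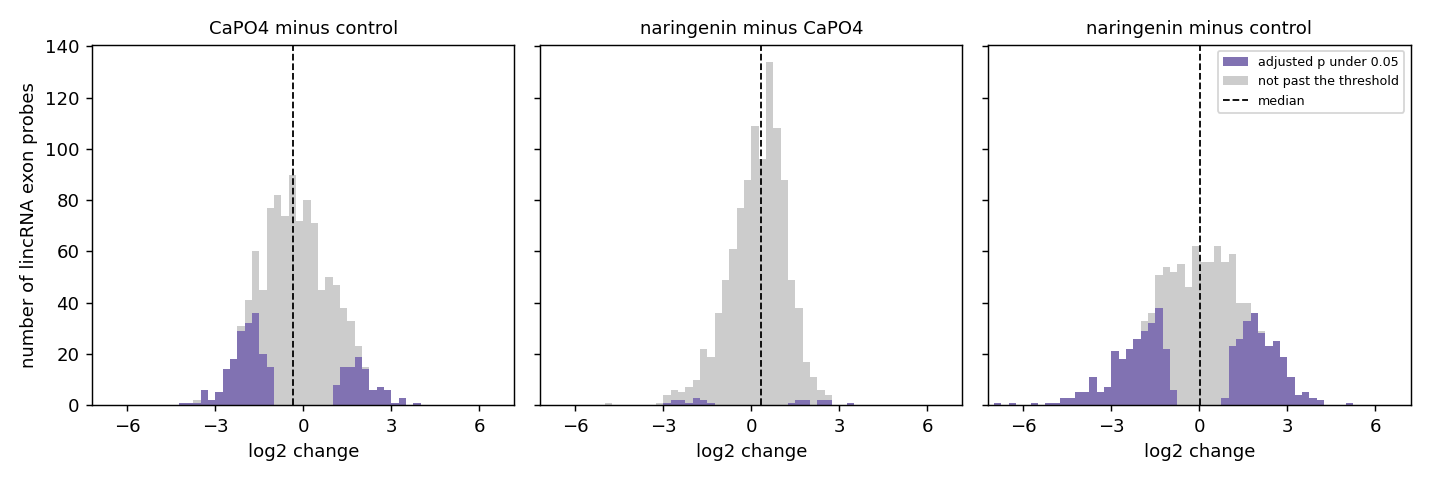
Distribution of the log2 change of the 1047 lincRNA exon probes in each comparison. Coloured bars are probes called by limma at an adjusted p under 0.05, grey bars the rest, and the dashed line is the median, which lay at -0.35, 0.31 and 0.01 with arrays scaled to their 75th percentile and turned to 0.23 and -0.26 for the first and second panel with normexp background correction. Calls numbered 275, 22 and 500.

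Some of the probes above the median level showed little difference. MM9LINCRNAEXON11350- had -1.12, -1.57 and -1.19 in the controls, -1.08, -1.17 and -1.62 with CaPO4, and -1.21, -1.21 and -1.29 with naringenin, and MM9LINCRNAEXON10523+ had -1.22, -2.25 and -1.69, then -2.07, -1.37 and -1.71, then -1.21, -1.06 and -1.18. Their CaPO4 minus control changes were 0.00 ± 0.30 and 0.00 ± 0.35. Yet both were off on some arrays, the first on CaPO4 3 only and the second on control 2, CaPO4 1 and CaPO4 3. From CaPO4 to naringenin the smallest changes were those of MM9LINCRNAEXON11051- (0.00 ± 0.36) and MM9LINCRNAEXON10473+ (0.01 ± 0.31). MM9LINCRNAEXON10473+ fell in both aneurysm groups against control (-1.39 ± 0.31, adjusted p = 0.0143, lost without control 1 at 0.0689, and -1.39 ± 0.31, adjusted p = 0.00592). Between naringenin and control they were MM9LINCRNAEXON10218+ (0.00 ± 0.35) and MM9LINCRNAEXON10634+ (-0.01 ± 0.44).

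Probes of the - strand were the more frequent among those on some arrays. Of the 1047, 460 were + and 587 were - (56.1%), against 50.01% - on the design, 50.5% among exon probes on all 9 arrays, 45.8% on 0 to 2 and 40.4% on none. This is a description, since detection chose the probes. The share was 56.1% when naringenin 3 was left out and 55.9% with 1 common limit, but 49.7% when the software's weaker mark for a signal above background chose the probes (1506 probes). It varied by pattern: 65.8% of the 120 probes on all control, 1 CaPO4 and all naringenin arrays and 65.4% of the 107 on no control, 1 CaPO4 and all naringenin arrays were -, against 48.1% of the 79 on no control, 1 CaPO4 and 2 naringenin arrays. Calls were 139 + and 136 - for CaPO4 minus control (30.2% and 23.2% of each strand), 9 and 13 for naringenin minus CaPO4 (1.96% and 2.21%), and 232 and 268 for naringenin minus control (50.4% and 45.7%). Among exon probes on all 9 arrays these counts were 94 and 80, 6 and 5, and 180 and 195. Whether the strands differ in these shares was not tested.

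The strands of an exon were seldom on for the same arrays, as were probes of different exons. The opposite probe of a + probe was itself on 3 to 8 arrays in 174 of 460 cases, on all 9 in 103 and on 0 to 2 in 183, and for the 587 - probes these counts were 174, 144 and 269. In the 174 exons with both strands on 3 to 8 arrays, 9 (5.17%) were on for exactly the same arrays. Among pairs of probes of 1 strand more than 20 numbers apart this share was 3.89% for + and 5.13% for -. The correlation of both strands over the 9 arrays had a median of 0.07 and was below 0 in 75 of the 174. For CaPO4 minus control 9 exons had both strands called the same way and 2 opposite ways, with 79 called on 1 strand. For naringenin minus control these counts were 23, 13 and 92, and for naringenin minus CaPO4 0, 0 and 7 (limma, adjusted p under 0.05). Such calls were not counted for pairs of probes of different exons. The counts therefore show nothing particular to the strands of an exon.

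**Figure D5:**
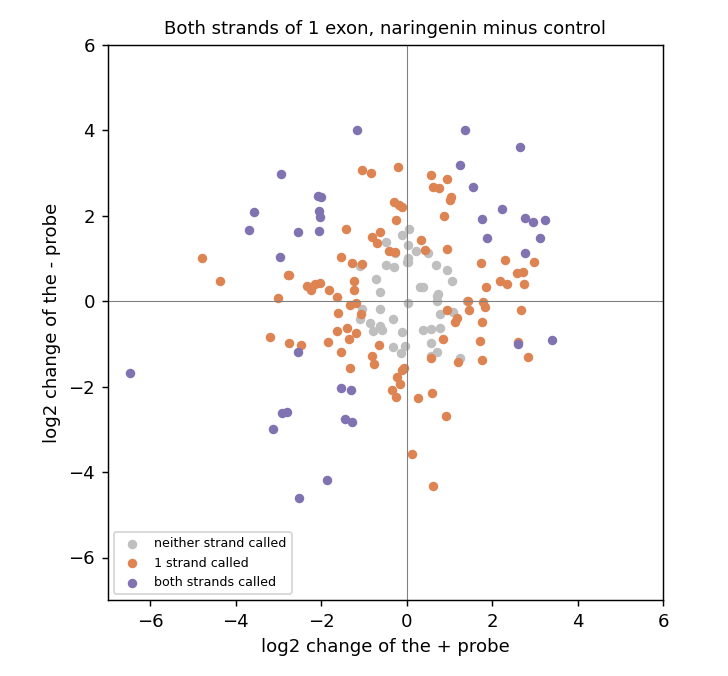
Log2 change of the - probe against that of the + probe for the 174 exon numbers with both strands on 3 to 8 arrays, naringenin minus control. Colours give how many strands were called, and of the 36 exons with both called, 23 lie in the quadrants of equal direction and 13 in those of opposite direction. Pairs of probes of different exons were not counted in this way.

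The largest gap between strands against control was in MM9LINCRNAEXON11061. MM9LINCRNAEXON11061+ was on the controls and naringenin 3, with -0.43, -0.23 and -0.63 in the controls, -2.85, -3.16 and -3.55 with CaPO4, and -3.67, -3.51 and -2.93 with naringenin. MM9LINCRNAEXON11061- was on CaPO4 2 and the naringenin arrays, with -3.03, -3.36 and -3.32, then -1.89, 0.48 and -2.21, then -0.05, 0.02 and -0.75. The control arrays were on for the + probe alone, and CaPO4 2, naringenin 1 and naringenin 2 for the - probe alone. On CaPO4 1 and CaPO4 3 both were off, and on naringenin 3 both were on. In CaPO4 the + probe fell at least 2.60-fold (-2.75 ± 0.34, adjusted p = 0.00234). The - probe, with only CaPO4 2 of that group on, had a fitted change of 2.03 ± 0.62 (adjusted p = 0.0431). That call was lost without any 1 control or naringenin array (adjusted p up to 0.121), and the change was 1.19 without CaPO4 2. With naringenin the + probe fell by 2.94 ± 0.34 (adjusted p = 0.000572) and the - probe rose at least 3.90-fold (2.97 ± 0.62, adjusted p = 0.00435). The second exon with opposite calls in CaPO4 was MM9LINCRNAEXON11458, at -2.33 ± 0.57 for + and 1.36 ± 0.37 for -.

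Among the 13 exons with opposite calls for naringenin minus control, the + probe fell and the - probe rose in 11, and the reverse held for MM9LINCRNAEXON10110 (3.40 ± 0.50 and -0.91 ± 0.27) and MM9LINCRNAEXON10164 (2.61 ± 0.39 and -1.01 ± 0.34). This split was not set beside that of other pairs of probes. The strands of MM9LINCRNAEXON11171 also parted. MM9LINCRNAEXON11171- had -1.86, -2.12 and -2.62 in the controls, -3.36, -0.32 and -3.55 with CaPO4, and -0.92, -1.10 and -1.58 with naringenin, so that naringenin minus control was 1.01 ± 0.74 (adjusted p = 0.281) where MM9LINCRNAEXON11171+ fell by 4.79 ± 1.17 (adjusted p = 0.00883). Without naringenin 2 and without naringenin 3 the latter was -3.98 and -5.85. From CaPO4 to naringenin the widest gaps were in MM9LINCRNAEXON11249 (-4.85 ± 1.64 for + and -0.12 ± 0.34 for -) and MM9LINCRNAEXON10248 (-2.07 ± 0.77 and 2.15 ± 0.63), and none of these 4 changes passed the threshold (adjusted p from 0.094 to 0.831). MM9LINCRNAEXON11249- fell against control in CaPO4 (-1.55 ± 0.34, adjusted p = 0.0127, lost without control 2 at 0.0576) and with naringenin (-1.68 ± 0.34, adjusted p = 0.00364). MM9LINCRNAEXON10248+ was on the 3 CaPO4 arrays, naringenin 1 and naringenin 3 and rose in CaPO4 at least 3.26-fold over control (3.10 ± 0.77, adjusted p = 0.0214). This was 3.71 without CaPO4 2, and the call was lost without control 2, control 3, CaPO4 1 or CaPO4 3 (adjusted p up to 0.0822).

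Exons with adjacent numbers were compared in the same way. Of 94 pairs of + probes 1 number apart, 3 (3.19%) were on for the same arrays, and of 179 such pairs of - probes 9 (5.03%), against 3.89% and 5.13% for pairs more than 20 numbers apart. The median correlation over the 9 arrays was 0.05 and 0.21 for adjacent pairs and 0.07 and 0.08 for distant ones. Whether adjacent numbers belong to 1 lincRNA is not stated in the files. Of the 12 adjacent pairs with the same arrays on, MM9LINCRNAEXON10614- and MM9LINCRNAEXON10615- were on CaPO4 2 and the naringenin arrays and correlated at r = 0.92. The naringenin minus control difference was 2.32 for MM9LINCRNAEXON10614- and 1.49 for MM9LINCRNAEXON10615-. It was the pair with the highest correlation of the 12, and the lowest was r = -0.22, for MM9LINCRNAEXON10163- and MM9LINCRNAEXON10164-.

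The limits of 3 and 8 arrays cut a continuous range of levels. The mean level over the 9 arrays had a median of -3.29 among the 262 exon probes on 2 arrays and -2.93 among the 194 on 3, and of -1.06 among the 127 on 8 and 0.90 among the 828 on all 9. Over the 1047 probes it ran from -3.78 to 1.07 with a median of -2.07, against -2.03 for the other probes on 3 to 8 arrays. The range from the lowest to the highest array of a probe had a median of 2.58, against 1.97 for exon probes on all 9 arrays and 2.60 for the other probes on 3 to 8. Just outside the rule, 667 of the 750 exon probes on a single array were on naringenin 3.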

How the data were processed

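RNA of mouse abdominal aorta was hybridised to 9 single-colour arrays, 3 per group. Per the labels' protocols, ribosomal RNA was removed and random primers served to amplify what was left before Cy3 labelling. Per the file headers, the authors extracted the deposited intensity values with Agilent Feature Extraction 11.0.1.1, which subtracts background, replaces values that do not exceed it and marks spots well above background. The authors' deposited value table holds the same intensity values within 0.0999%. Aligners and other later processing steps were not given in the sources used here.

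Levels are log2 of the deposited processed intensity, scaled so that each array's 75th percentile is 0. Outlier spots, control spots and the negative control probes, which the files mark as ordinary probes and name as negative, were left out, leaving 59709 probes. The 37498 probes detected on at least 3 arrays were fitted with limma 3.58.1 in R 4.3.3 (group means, moderated variance, Benjamini-Hochberg adjustment over all probes tested), tested on simulated data. Comparisons with control tested 37307 probes. The p-values are two-sided, and their precision is limited by the 3 arrays per group. Of the 1047 probes, 2 lacked a value on 1 array. A fold between group means was given as a bound, "at least", where the lower group was off and the higher group on for all arrays. Scan means arrays with the same scan time in the file headers: the controls, naringenin 3 and the other 5 arrays each had one. Normexp was run on the median spot signal, with an offset of 50, since the mean signal that had been planned was not available.

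Named probes were the 3 called probes with the largest change without overlap per comparison and direction, the 2 brightest of each all-or-none pattern, the 2 exons with the widest strand gap per comparison, the 2 brightest probes per group that were on 1 array of it and on all of another, and the 2 with the smallest change per comparison above the median level. Overlap was judged on the levels of all arrays, including those where a probe was off. The probes with the largest bounds were added after their values were seen. The members and lists were chosen with earlier results of these data known. Alternatives were other scalings, background corrections and filters, the deposited table, replicate and scan blocks, and leaving out each array.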

Additional observations from a re-analysis of the deposited data

Results flagged for a closer look

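On naringenin 3, 41.4% of the negative control spots were marked well above background, against 8.92% to 14.6% on the control arrays. These spots entered none of the comparisons. Naringenin 3 also detected 97.5% of the lincRNA exon probes that were on 3 to 8 arrays, and it had a scan time of its own. The part of this array in the on and off patterns was not tested beyond the counts without it.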

How the results depend on the processing

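With limma, the 275 calls for CaPO4 minus control became 144 with normexp background correction and 459 without CaPO4 2 and naringenin 3, and ran from 119 to 347 when 1 array was left out. The 22 calls for naringenin minus CaPO4 became 12 with the 75th percentile over probes on all 9 arrays, 34 with quantile normalization, 9 without scaling, 1 with normexp, 9 without a filter, 0 with only these groups fitted (212 at an unadjusted p under 0.05), 3 with scan as a fixed block, 0 within 1 scan (136 unadjusted), 436 without CaPO4 2 and naringenin 3, and 0 to 408 with 1 array left out. The 500 calls for naringenin minus control became 260 without scaling and 278 with normexp, and 375 to 614 with 1 array left out. Normexp turned MM9LINCRNAEXON10114- (0.013) and MM9LINCRNAEXON10218- (0.092) for CaPO4 minus control, and leaving out CaPO4 2 and naringenin 3 turned MM9LINCRNAEXON11249+ (0.83; -2.92 to 0.83 with 1 array left out). The cause was not tested. With the replicate block the calls were 264, 12 and 492. Deviations of same-numbered arrays correlated between -0.17 and 0.24, those of others between -0.28 and 0.25. With 3 arrays per group, of which CaPO4 2 and naringenin 3 stood apart, these values cannot settle whether replicate numbers pair the arrays. With a common limit 605 of all lincRNA exon probes were on 3 to 8 arrays, in place of 1047. The 145 probes on no control and all naringenin arrays became 96 with the software's weaker mark and 92 with a common limit. The 130 on all control and no CaPO4 arrays became 73 with the weaker mark, 326 without CaPO4 2, and 326 without CaPO4 2 and naringenin 3. The share of - probes became 49.7% with the weaker mark. These alternatives on patterns, with the weaker mark as well, were chosen after seeing the data. The count of lincRNA exon probes on 3 to 8 arrays by the weaker mark (1506) was planned. Scaling moved the median of all probes for CaPO4 minus control from -0.04 to 0.18 with arrays centred on their median, -0.40 with the percentile over probes on all 9 arrays and -1.15 without scaling. Levels below an array's detection limit carry no order.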
